A study of Mus musculus with 11 samples.

Results

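The antiviral genes that cells switch on in answer to type I interferon were examined in endothelial cells of mouse bone marrow, with and without a mammary tumour metastasis nearby. The set comprised 40 genes, taken by symbol as classical antiviral interferon-stimulated genes, without the guanylate-binding proteins, chemokines, STAT and IRF factors and antigen-presentation genes. All 40 were found among the 27179 rows of the count table. Of these, 36 were among the 11948 genes with enough reads to be tested, and *Oas2*, *Oas3*, *Mx1* and *Epsti1* were not.

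The cells were CD31hi EMCNhi endothelial cells, a surface signature that marks type H capillaries in healthy bone, sorted by flow cytometry, with CD45 and Ter-119 as stains for blood cells, from BALB/c mice aged 8 to 10 weeks. The met group (3 libraries) came from marrow areas that held red fluorescent cells of the BALB/c-derived mammary cancer line 4T1.2, in tumour-burdened mice. The non-met group (6 libraries) came from neighbouring areas of the same bones without fluorescence, and the control group (2 libraries) from healthy mice of matched age. Each library was made from the sorted cells of a pool of 1 to 4 mice. The burdened pools are numbered 1 to 4. Non-met 1 and 5 are both from pool 1, met 1 shares pool 2 with non-met 2 and 6, met 2 shares pool 3 with non-met 3, and met 3 shares pool 4 with non-met 4. Libraries of one pool share animals, so the P values below measure the spread between libraries and not between independent mice. Because the tumour line has the strain of its host, genotype does not separate tumour reads from endothelial reads.

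Type I interferons bind a receptor made of Ifnar1 and Ifnar2, whose kinases activate the transcription factor complex ISGF3, with Stat2 and Irf9 among its parts. This complex binds an interferon-stimulated response element in the promoters of its target genes. The products of the targets sense viral RNA or DNA, degrade RNA, block translation, deplete nucleotides or stop viruses at membranes. Endothelial cells carry the receptor and express many of these genes at a basal level without infection.

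Values are counts per 1e6 counts (CPM) scaled by the trimmed mean of M values (TMM), and a value of 3 reads was taken as the floor of detection. Totals ranged from 733342 counts in non-met 4 to 19539761 in control 1, which put the floor between 0.147 and 5.43 scaled CPM. Such floors cover counting error only, as the reads carry no molecular identifiers. Endothelial markers were high in every library, with a sum over 12 genes of 9364 and 13780 CPM in controls, 10423 to 17765 CPM in non-met and 14938 to 17624 CPM in met, and in met against control 4 of the 12 were called higher and 1 lower (voomLmFit). Markers of stroma and bone-forming cells, also 12, summed to 4126 and 10761 CPM in controls, 1244 to 3950 CPM in non-met and 546 to 3062 CPM in met libraries, so that both controls lay above every other library. Those of monocytes and macrophages summed to 656 to 1877 CPM over all libraries. The sum of 12 granulocyte markers was 35.6 to 203 CPM in met, 397 to 5157 CPM in non-met and 80.2 and 359 CPM in control libraries. This sum was lower in each of the 3 met libraries than in any non-met library. Of 10 plasmacytoid dendritic cell markers, 6 had no reads in any library, the defining gene *Siglech* among them, while the list, which also holds the widely expressed *Tcf4*, summed to 276 to 1256 CPM, and the summed T and NK cell markers reached at most 88.7 CPM. The sum of 7 megakaryocyte markers was 42.6 to 123 CPM in met, 0 to 57.8 CPM in non-met and 0 and 31.3 CPM in control libraries, and 1 of the 3 tested was called higher in met than in control (voomLmFit). Markers of B cells and of red cells summed to at most 120.5 and 125 CPM. Epithelial markers summed to 1.08 and 16.8 CPM in controls, 1.62 to 102 CPM in non-met and 12.5 to 80.5 CPM in met libraries. The part of these cells in the results below was not tested. In bulk libraries, fewer cells that express a gene and less RNA per cell cannot be told apart.

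The response element was looked for in the promoter windows that RefSeq holds for these genes (GRCm38.p6, the C57BL/6J reference, 250 bases before to 50 bases after each start site). The core searched was GAAANNGAAA on both strands, with overlapping matches allowed. Of the 30 members with a window, 13 held it (43.3%), compared with 683 of 17451 genes of the table (3.91%). The match lay before a start site in 9 members and only after it in 4, which were *Ifih1*, *Ddx58*, *Eif2ak2* and *Ifitm3*. A match describes the letters and does not show that a factor binds there. *Dhx58*, *Zbp1*, *Oas2*, *Mx1*, *Mx2*, *Usp18*, *Parp9*, *Parp14*, *Ifi27* and *Rtp4* have no entry.

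**Figure D1:**
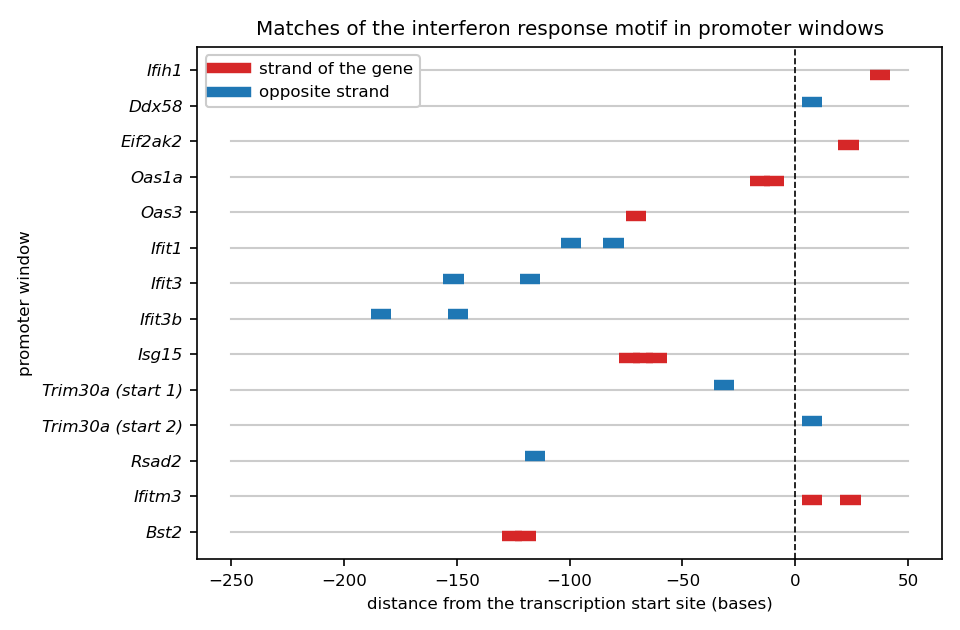
Positions of the response element core in the promoter windows of the 13 members that hold it, in bases from the transcription start site (dashed line), with 1 row per window and colours for the strand of the match relative to the gene. *Isg15* has 3 overlapping matches from -78 to -57, and *Ifitm3* has 2 matches, both after its start.

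Stretches before the start site are printed to show the element, in the direction of the gene, with the matched core in capitals. A core on the opposite strand reads as its reverse complement. *Isg15* and *Ifit3b* were added to the rule-chosen genes after their values were seen.
Ifit3 (chr19:34583353-34583436, plus strand): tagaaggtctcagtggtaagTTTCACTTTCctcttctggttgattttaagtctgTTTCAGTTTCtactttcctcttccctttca
Ifit3b (chr19:34607749-34607832, plus strand): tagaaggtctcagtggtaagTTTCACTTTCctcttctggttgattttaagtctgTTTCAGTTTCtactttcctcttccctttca
Isg15 (chr4:156200855-156200916, minus strand): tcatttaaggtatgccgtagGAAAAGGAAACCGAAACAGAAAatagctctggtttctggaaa
Trim30a (chr7:104465200-104465249, minus strand): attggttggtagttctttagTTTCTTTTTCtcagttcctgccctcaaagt
Rsad2 (chr12:26456543-26456592, minus strand): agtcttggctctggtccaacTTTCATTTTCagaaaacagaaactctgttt
Bst2 (chr8:71537567-71537622, minus strand): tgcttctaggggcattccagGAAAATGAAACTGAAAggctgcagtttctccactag

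The printed stretches of *Ifit3* and *Ifit3b* are identical over all 84 bases. Their transcripts are alike as well. Of all 75-base windows of their transcripts, 41.1% in *Ifit3* and 35.7% in *Ifit3b* recur in another gene, as do 47.6% in *Oas1a* and 22.4% in *Herc6*. Read counts of these 4 genes are uncertain to that extent. *Parp9* and *Dtx3l* overlap each other in the genome, *Ifit1* and *Ifit3b* overlap *Ifit1bl1*, *Ifi27* overlaps *Ifi27l2a*, *Rtp4* overlaps *Masp1* and *Eif2ak2* overlaps *Gm6548*.

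Of the 440 values (40 genes in 11 libraries), 96 were 0 reads (21.8%), 59 were 1 to 3 reads and 285 were above the floor (64.8%). For the 36 tested members the share above the floor was 71.5%, beside 65.1% for all genes tested. *Ddx58*, *Eif2ak2*, *Oasl2*, *Trim25*, *Ifitm3*, *Parp9*, *Parp14* and *Ifi27* were above the floor in every library, and *Oas2*, *Oas3*, *Mx1* and *Epsti1* in at most 1. Non-met 1 and 5 shared 13 members above the floor and differed in 18, and non-met 2 and 6 shared 20 and differed in 17. The shared fraction of the members found in either library was 41.9% and 54.1%, compared with 51% and 59.9% over all genes tested. At 10 CPM or more stood 31 of the 36 tested members in met 2, 30 in met 3 and 21 in met 1 (86.1%, 83.3% and 58.3%). The same share of all genes tested was 63.6%, 67.2% and 46.1% in those libraries. In non-met libraries 14 to 23 of the 36 reached that level (38.9% to 63.9%, beside 44% to 61.6% of all genes), and in controls 27 and 23 (75% and 63.9%, beside 74.5% and 65.6%).

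**Figure D2:**
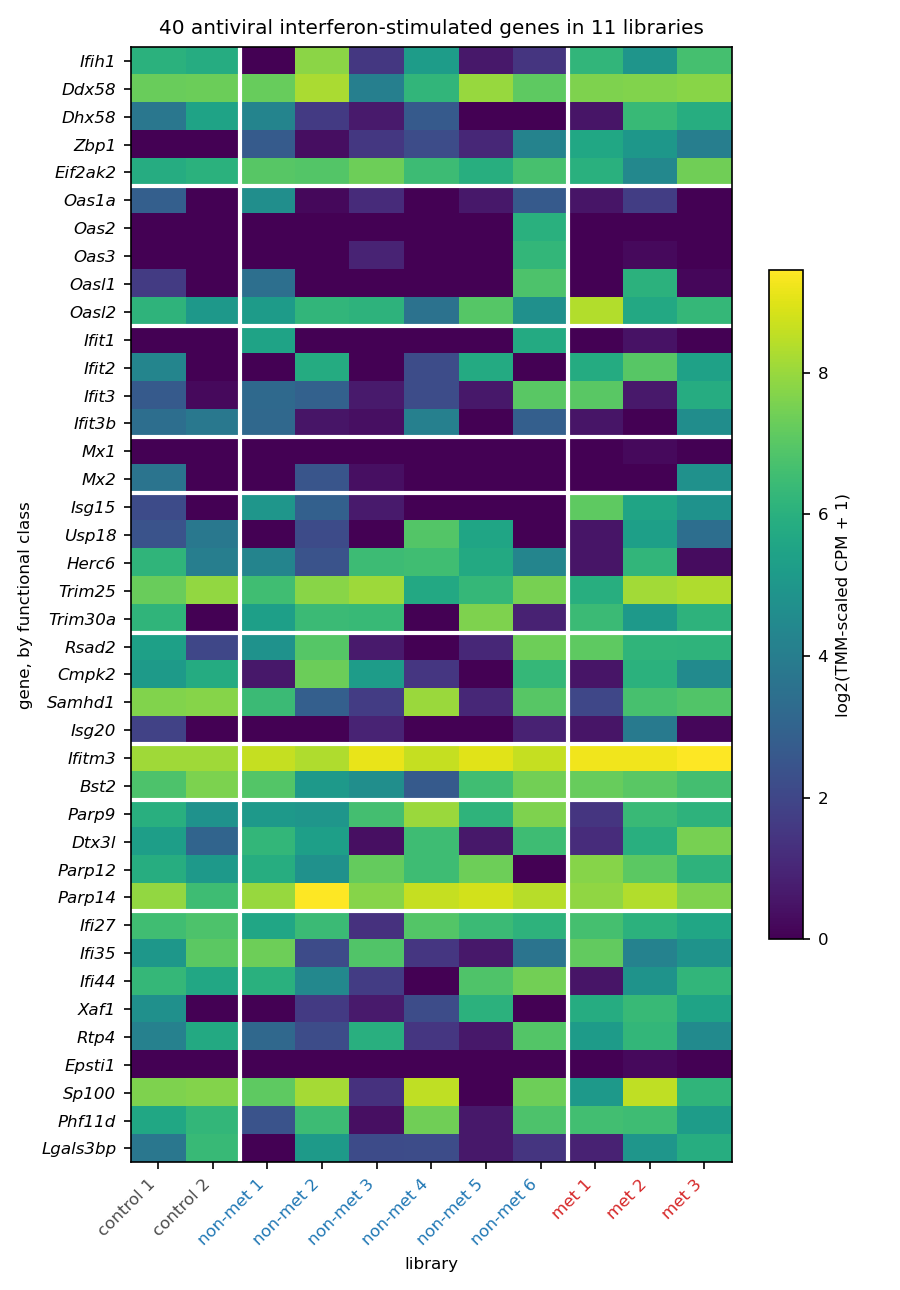
Level of each of the 40 genes (rows, in functional classes split by white lines) in each of the 11 libraries (columns, coloured by group), as log2 of TMM-scaled CPM plus 1. *Ifitm3*, *Ddx58*, *Trim25* and *Parp14* are present throughout, *Mx1* and *Epsti1* are dark throughout, and most other genes lie near 0 in some libraries and high in others, with *Oas2* and *Oas3* bright in non-met 6 alone.

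Per transcript length the highest level by far was that of *Ifitm3*, at 706 reads per kilobase and per 1e6 counts (RPKM, mean of all 11 libraries with the deposited gene length). *Bst2* followed with 134 RPKM, *Sp100* with 77.6, *Ifi27* with 71.2 and *Ifi35* with 43.4. Several classical inducible genes stood lower on this scale. *Isg15* had 30.1 RPKM (2.26 in controls, 8.29 in non-met and 92.4 in met, where it exceeded *Sp100* at 73.6), *Ifit3* 15.6, *Rsad2* 15.4, *Zbp1* 5.24 and *Ifit1* 3.38.

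The first comparison asked whether these genes differ between endothelial cells of tumour-infiltrated marrow and those of the adjacent marrow. None of the 36 tested members was called in met against non-met (voomLmFit, adjusted P under 0.05), with 51 of all genes called (0.427%). The count of members was also 0 with the edgeR quasi-likelihood test, DESeq2 and limma-trend. At an unadjusted P under 0.05 stood 6 members in voomLmFit (16.7%, beside 7.24% of all genes), all with higher fitted levels in met: *Isg15*, *Xaf1*, *Ifit2*, *Ifitm3*, *Ifih1* and *Rsad2*. This number was 0 with the quasi-likelihood test, 1 with DESeq2 and 2 with limma-trend. With the mouse pools as a replicate block it was 0 in a fixed block fit and 6 in a random block fit. Fitted levels were higher in met for 26 of the 36 members (72.2%), compared with 51.8% of all genes. The median log2 fold change was 1.15 for the members and 0.08 for all genes. It was 0.49 with the quasi-likelihood test (all genes -0.10), 0.34 with DESeq2 (all genes -0.26) and 0.42 in the fixed block fit (all genes -0.13). In that fit 18 of 32 members were higher. In the random block fit the median was 1.18 (all genes 0.09), and 27 of 36 members were higher. In voomLmFit without a block, all 12 endothelial markers had higher levels in met (median log2 fold change 0.47, 4 called). Mitochondrial genes held 6.72% to 17.8% of the counts in non-met and 4.33% to 9.56% in met libraries. The part of either in the members' values was not tested.

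The second comparison set met against the healthy controls. *Ifitm3* was the only member called, higher in met (log2 fold change 1.28 ± 0.228 (SE), adjusted P = 0.00204, voomLmFit), among 82 genes called higher (0.686%). The edgeR quasi-likelihood test, limma-trend and DESeq2 did not call it (adjusted P = 0.886, 0.956 and 0.341). It was also not called without control 1 or without met 3 (adjusted P = 0.243 and 0.15), and it was called under 16 of 23 alternatives, with a log2 fold change of 1.13 to 1.33 over all of them. DESeq2 called *Zbp1* and *Ifit1* in its place, *Ifit1* being at the floor in both groups, and *Zbp1* was called beside *Ifitm3* without sample weights. Without a low-count filter *Zbp1* and *Isg15* were called beside it. At an unadjusted P under 0.05 stood 6 members in voomLmFit (16.7%, beside 14.1% of all genes), 0 with the quasi-likelihood test, 5 with DESeq2 and 2 with limma-trend. The median log2 fold change of the members was 0.47 and that of all genes -0.09. With *Zbp1* at its bound and *Ifit1*, which was at the floor in both groups, left out, it was 0.43.

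The third comparison set non-met against control, to ask what differs in the marrow next to a metastasis. No member was called by voomLmFit, the quasi-likelihood test or limma-trend, DESeq2 called *Ifit1*, and 76 of all genes were called (0.636%, voomLmFit). At an unadjusted P under 0.05 were again 6 members in voomLmFit (16.7%, beside 17% of all genes), *Zbp1* and *Parp14* with higher and *Ifih1*, *Dhx58*, *Samhd1* and *Lgals3bp* with lower fitted levels in non-met. The median log2 fold change was -0.23, beside -0.33 for all genes, and without control 1 both changed sign (0.59 and 0.20). Mitochondrial genes held a larger share of the counts in each of the 6 non-met libraries than in the controls (5.4% and 6.2%), and its part in these values was not tested. Both contrasts with control share the same 2 libraries.

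**Figure D3:**
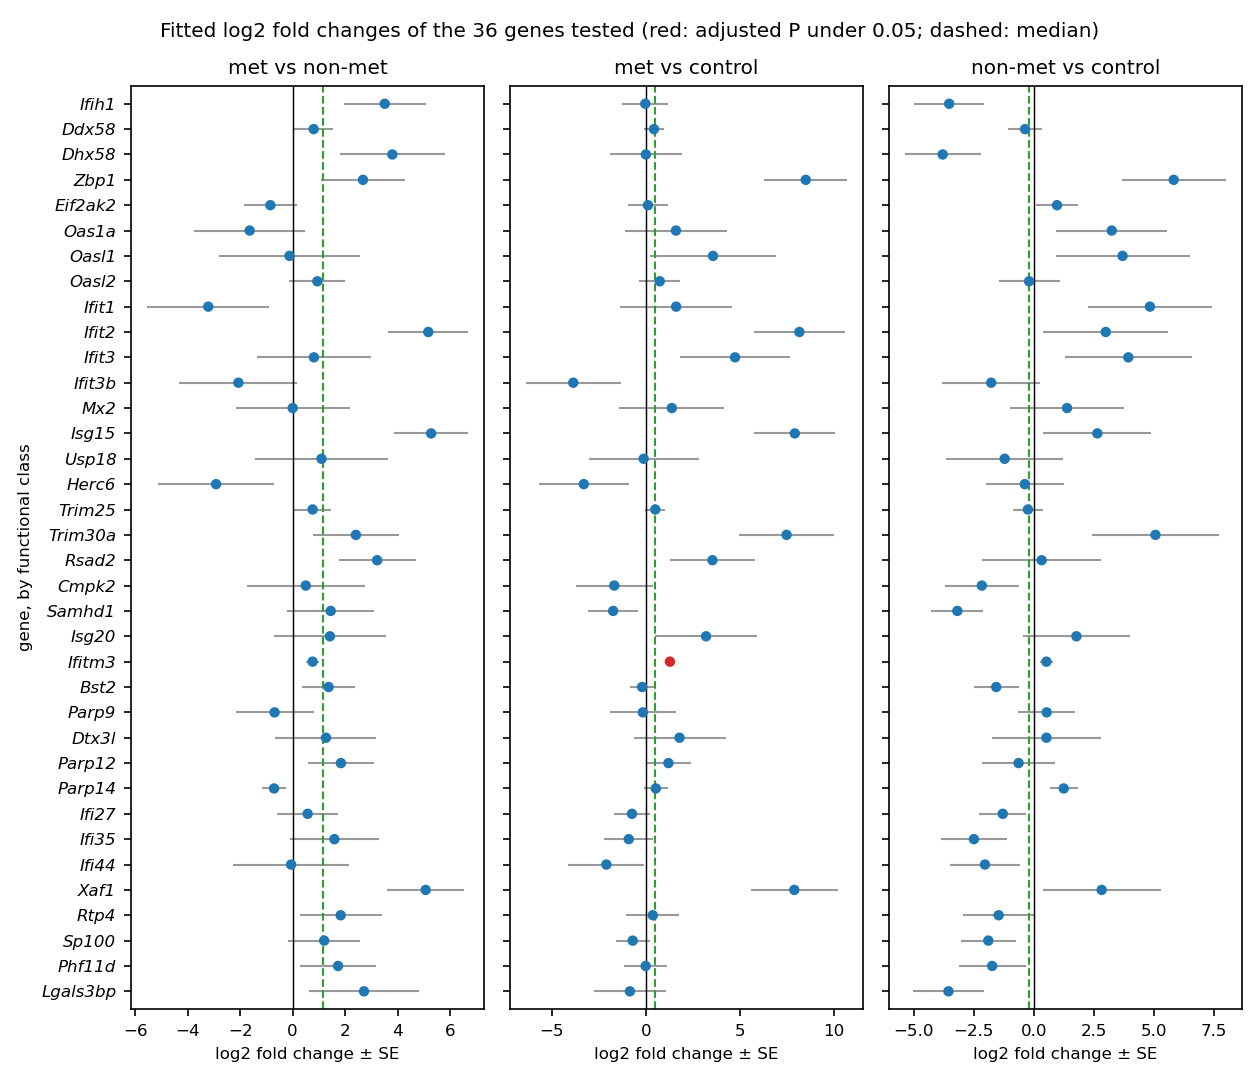
Fitted log2 fold change of the 36 tested members, as points with the standard error as bars, in the 3 comparisons, with 0 as a solid and the median as a dashed line. *Ifitm3* in met vs control (1.28) is the single red point, called at an adjusted P under 0.05, and most bars of the other genes span several log2 units.

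Ifitm3 and Bst2 are membrane proteins that stop enveloped viruses, the first at entry and the second at release. *Ifitm3* (chr7:141009590-141010744, GRCm38.p6) was 273.3 and 272.8 CPM in the controls, 397.2, 321.7, 559.4, 396.3, 521.2 and 390.0 in non-met 1 to 6, and 605.3, 599.4 and 698.5 in met. No library of one group overlapped the next, so that the order control, non-met, met held for every library. It was the only tested member with every met library above every non-met library, which 1.54% of all genes showed. With scaling by library size or by relative log expression this count was 0. Without met 1 or without met 3, which leaves 2 met libraries to separate, it was 3 (8.33%, beside 4.18% and 3.68% of all genes). The log2 fold change from non-met to met was 0.76 ± 0.251 (SE), with an adjusted P of 0.378 (voomLmFit). It was 0.47 with pools as a fixed replicate block and 0.76 with a random one. With DESeq2 it was 0.40, and over all alternatives 0.35 to 0.86. The unadjusted P was 0.0476 in the exact two-sided permutation test over 84 splits. That test left 3 members under 0.05 (*Ifitm3*, *Isg15* and *Zbp1*) and 3.74% of all genes, and the smallest adjusted P over all genes was 1. Non-met exceeded control by a log2 fold change of 0.52 ± 0.283 (SE), with an adjusted P of 0.341 (voomLmFit). *Bst2* did not follow this order. It was 111 and 190 CPM in controls, 5.43, 63.4 and 174 (lowest, median, highest) in non-met, and 150, 131 and 98.6 in met, so that all 3 groups overlapped.

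Isg15 is a ubiquitin-like protein that is attached to other proteins, Usp18 removes it and damps receptor signalling, Herc6 is its ligase in mice, and Trim25 activates the RNA sensor encoded by *Ddx58*. *Isg15*, named after its values were seen, was 3.42 and 0 CPM in controls, 0, 0.311 and 30.5 (lowest, median, highest) in non-met and 138, 44.3 and 26.8 in met. Met 3 stood below non-met 1, and 4 of the 6 non-met libraries had at most 2 reads. The log2 fold change from non-met to met was 5.28 ± 1.40 (SE), the largest of the class, with an adjusted P of 0.14 (voomLmFit) and a permutation P of 0.0357 (exact, two-sided). It was 3.45 with the quasi-likelihood test and 3.36 with DESeq2. *Trim25* was 157 and 244 CPM in controls, 50.7, 137 and 268 in non-met and 59.5, 278 and 319 in met. Met 1 was near the lowest non-met library, and met 2 and 3 were above all of them. *Trim30a*, which restrains inflammatory signalling, was 71.1 and 0 CPM in controls, 0, 61.0 and 195 in non-met and 85.0, 33.2 and 67.7 in met. The met values lay inside the non-met range. *Herc6* was lower in met, at 0.441, 74.3 and 0.230 CPM, than in the non-met libraries that came from the same mice, in each of the 3 pools, as was *Parp9*, both picked out after their values were seen. These were 2 of the 36 members (5.56%), close to the 5.67% of all genes.

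**Figure D4:**
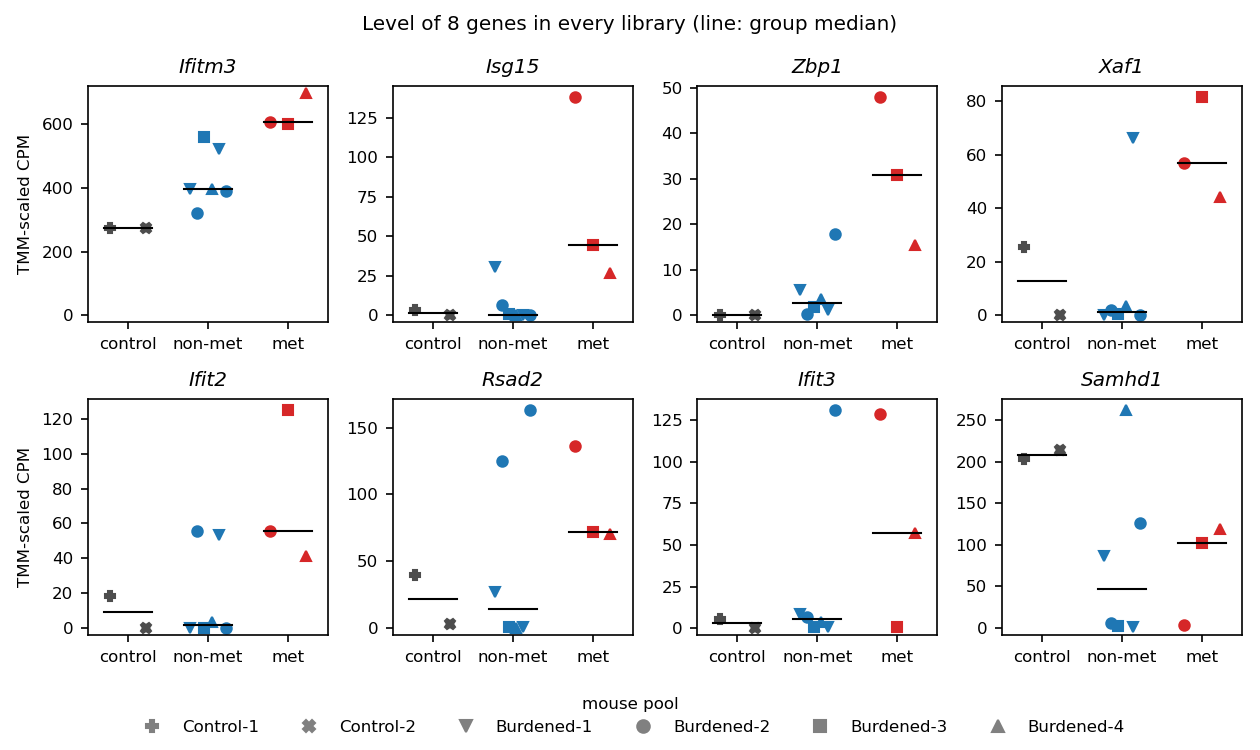
TMM-scaled CPM of 8 members in every library, by group, with the marker shape giving the mouse pool and the line the group median. *Ifitm3* shows 3 groups without overlap (273 to 698 CPM), *Isg15*, *Zbp1* and *Xaf1* have all 3 met libraries above both controls and at most 1 non-met library above the lowest met library, and *Samhd1* has controls at 202 and 214 CPM with both burdened groups spread from near 0.

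The sensors of viral nucleic acid start the response. Ddx58 (RIG-I) and Ifih1 (MDA5) bind viral RNA, Dhx58 regulates both, Zbp1 binds Z-form nucleic acid and can trigger necroptosis, and Eif2ak2 (PKR) stops translation. *Ddx58* was 154 and 159 CPM in controls, 15.9, 144 and 304 in non-met (lowest, median, highest) and 196, 200.5 and 219 in met. Met libraries were close to each other and above both controls, but inside the wide non-met range. *Eif2ak2* was 56.7 and 64.6 CPM in controls, 60.4, 112 and 165 in non-met and 63.0, 20.3 and 170 in met. It was higher than both controls in 5 of 6 non-met libraries and in 1 of 3 met libraries. *Zbp1*, named after its values were seen, had no reads in either control, 0.290, 2.74 and 17.8 CPM in non-met and 48.0, 30.9 and 15.5 CPM in met. Its mean in met was at least 92.9-fold higher than the control floor, taken as the mean of 3 reads in each control (59.3-fold against control 2 alone and 215-fold against control 1 alone), with an adjusted P of 0.0603 (voomLmFit). Of the 5 sensors, 4 had higher fitted levels in met than in non-met, with a median log2 fold change of 2.68, and in met against control the median was 0.11.

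The IFIT proteins bind viral RNA that lacks the marks of host RNA and keep it from being translated. *Ifit2* was 18.7 and 0 CPM in controls, 0, 1.81 and 55.6 in non-met (lowest, median, highest) and 55.5, 125 and 41.4 in met. All 3 met libraries were above both controls, and non-met 2 and non-met 5 lay among the met values. Met exceeded non-met by a fitted log2 fold change of 5.17 ± 1.53 (SE), with an adjusted P of 0.235 (voomLmFit), and by 1.97 with the quasi-likelihood test and 1.79 with DESeq2. *Ifit3* was 5.38 and 0.177 CPM in controls, 0.530, 5.15 and 132 in non-met and 129, 0.568 and 57.4 in met. One met library was at the floor and the highest value was in non-met 6. *Ifit1* had more than 3 reads in only non-met 1 (43.4 CPM) and non-met 6 (54.2 CPM). Of the 4 genes, 2 had higher fitted levels in met than in non-met.

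The oligoadenylate synthetases make a messenger that activates RNase L, and the OAS-like proteins share their fold. *Oasl2* was 70.6 and 31.5 CPM in controls, 10.9, 52.0 and 122 in non-met (lowest, median, highest) and 330, 51.7 and 77.9 in met. Met 1 stood above every other library, while met 2 and 3 lay inside the non-met range. *Oasl1* was 2.15 and 0 CPM in controls, 0 in the lowest non-met library and at the non-met median, 110 in non-met 6 and 0, 66.5 and 0.115 in met. Non-met 6 also held nearly all reads of *Oas2* (63.1 CPM) and *Oas3* (76.4 CPM), which were at or under the floor in the other 10 libraries. *Oas1a* was highest in non-met 1 (24.5 CPM). The Mx GTPases trap viral ribonucleoproteins, and many inbred mouse strains, BALB/c among them, carry a defective *Mx1* allele. *Mx1* had at most 1 read in a library, at 0.190 CPM in met 2 and 0 in the other 10. *Mx2* was 11.5 and 0 CPM in controls, 0 at the lowest and median and 4.65 at the highest in non-met, and 0, 0 and 26.6 in met, so that it was above the floor in 3 libraries only.

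Rsad2 (viperin) makes a chain-terminating nucleotide, Cmpk2 is a nucleotide kinase encoded next to it, Samhd1 degrades deoxynucleotides and Isg20 is an exonuclease. *Rsad2* was 39.9 and 3.01 CPM in controls, 0, 14.1 and 164 in non-met (lowest, median, highest) and 137, 72.0 and 70.7 in met. The met libraries were above both controls, and non-met 2 and 6 were also high. *Samhd1* was 202 and 214 CPM in controls, 1.06, 46.5 and 262 in non-met and 3.08, 102 and 118 in met. In contrast to *Rsad2*, all met libraries and 5 of 6 non-met libraries lay below both controls, with a log2 fold change of -3.19 ± 1.09 (SE) from control to non-met (adjusted P = 0.141, voomLmFit). All 4 genes of the class had higher fitted levels in met than in non-met, with a median log2 fold change of 1.44.

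Parp9, Parp12 and Parp14 attach ADP-ribose to proteins, and Dtx3l is the ubiquitin ligase that pairs with Parp9. *Parp14* was 242 and 90.9 CPM in controls, 214, 369 and 682 in non-met (lowest, median, highest) and 234, 326 and 196 in met. It had a higher median in non-met than in either other group, with a log2 fold change of 1.24 ± 0.586 (SE) over control (adjusted P = 0.284, voomLmFit). *Parp12* was 57.9 and 32.4 CPM in controls, 0, 74.2 and 162 in non-met and 210, 132 and 68.4 in met. All met libraries were above both controls. Among the remaining members, *Ifi27*, which encodes an interferon-inducible membrane protein, was 91.8 and 110 CPM in controls, 1.56, 76.7 and 121 in non-met and 100.4, 66.0 and 46.7 in met. *Sp100*, a component of nuclear bodies, was 194 and 207 CPM in controls, 0, 150 and 374 in non-met and 33.9, 372 and 71.0 in met. Neither gene separated the groups. *Xaf1*, a pro-apoptotic protein named after its values were seen, was 25.5 and 0 CPM in controls, 0, 1.33 and 66.3 in non-met and 56.8, 81.7 and 44.2 in met. Its fitted level was higher in met than in non-met by 5.07 ± 1.48 (SE) on the log2 scale, with an adjusted P of 0.224 (voomLmFit), and by 2.33 with the quasi-likelihood test and 2.05 with DESeq2. Non-met 5 was the only non-met library in the met range. Of the 8 tested genes of this last class, 7 had higher fitted levels in met than in non-met, but only 2 higher in met than in control.

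Met libraries were above both controls in 8 of the 36 members, compared with 8.43% of all genes: *Ddx58*, *Zbp1*, *Ifit2*, *Isg15*, *Rsad2*, *Ifitm3*, *Parp12* and *Xaf1*. That is 22.2% of the members. In the 3 pools that gave both kinds of library, 4 members (11.1%) were higher in met than in each non-met library of the same mice: *Ifitm3*, *Isg15*, *Xaf1* and *Zbp1*, beside 7.6% of all genes. Without met 1, which leaves 2 pools, the count was 18 (50% of the members, beside 23.9% of all genes). It was 8 (22.2%) without non-met 2 or without non-met 6, beside 10.7% and 9.97% of all genes.

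The pools did not give the same picture. In pool 3, met 2 was higher than non-met 3 in 26 of 36 members, with a median difference of 2.71 in log2 CPM (45% of all genes higher, median 0.00). In pool 4, met 3 was higher than non-met 4 in 25 members, with a median difference of 1.51 (52.2% of all genes higher, median 0.20). In pool 2, met 1 was higher than the mean of non-met 2 and 6 in only 15 members, with a median difference of -0.14 (40% of all genes higher, median -0.23). Non-met 3 and 4 were above the floor for 61.1% and 47.2% of the tested members (65.6% and 48.1% of all genes), and met 2 and 3 for 88.9% and 86.1% (71.6% and 75.3% of all genes). Both met libraries were also the deeper ones of their pool (5479655 against 4082656 and 8771860 against 733342 counts). In pool 2, met 1 with 2547520 counts was above the floor for 63.9% of the members (50.5% of all genes), non-met 6 with 1146421 counts for 69.4% (58%) and non-met 2 with 7683451 counts for 83.3% (74%). The part of depth in these differences was not tested.

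**Figure D5:**
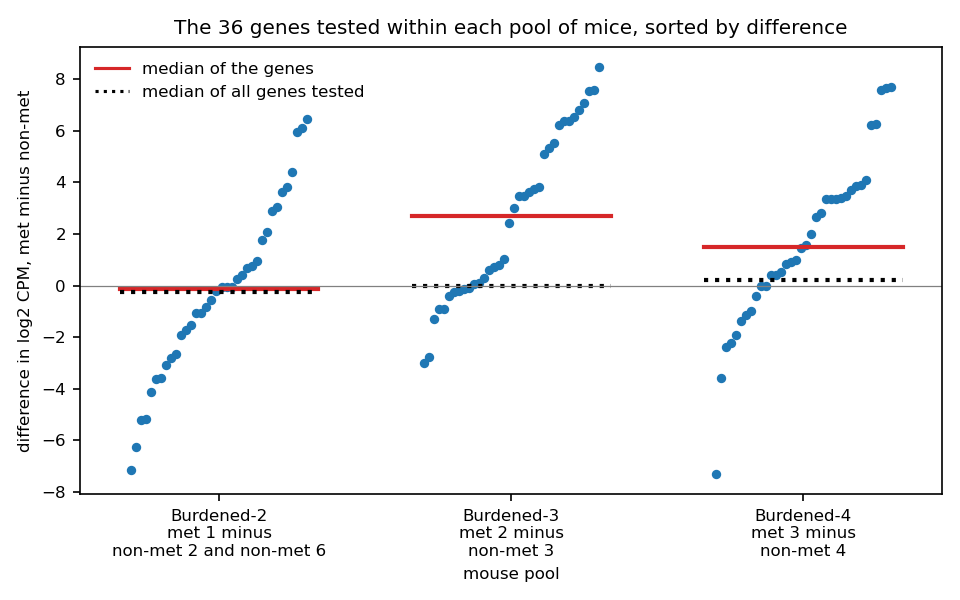
Difference in log2 CPM of each of the 36 tested members between the met and the non-met libraries of the same mouse pool, sorted within each pool, with the member median (solid red line) and the median of all genes tested (dotted line). The member median is 2.71 in Burdened-3, 1.51 in Burdened-4 and -0.14 in Burdened-2.

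Non-met 6 had the highest value of all libraries in 6 of the 36 tested members (16.7%, beside 10% of all genes), and in *Oas2* and *Oas3*. Non-met 4 was highest in 7 (19.4%, beside 13.4%) and met 3 in 6 (16.7%, beside 5.42%). Non-met 6 also had the highest *Irf7* (140 CPM). This library had 1146421 counts and the highest granulocyte marker sum of all (5157 CPM), and the part of these cells in its values was not tested. It was also the only library with more than 3 reads of an interferon alpha gene, with 54 reads of *Ifna16* (48.0 CPM).

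The ligands were otherwise nearly absent. Of the 21 interferon genes listed, none passed the filter for testing. Besides *Ifna16*, *Ifne* had 168 reads in met 1 (74.0 CPM), *Ifnl2*, a type III interferon, 132 reads in met 2 (25.0 CPM) and *Ifnz* 4 reads in non-met 3 (1.24 CPM). *Ifnb1* and *Ifng* had no reads in any library, which allows up to 0.147 CPM in the deepest and 5.43 CPM in the shallowest library. These 4 ligands were each above the floor in 1 library, and the other listed ligands in none.

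The receptor, its kinases and the ISGF3 factors were present in all groups. None of their 7 genes was called in any of the 3 comparisons by voomLmFit, the quasi-likelihood test, DESeq2 or limma-trend, and in voomLmFit none reached an unadjusted P under 0.05. *Ifnar1* was 92.6 and 82.3 CPM in controls, 7.24, 168 and 245 in non-met (lowest, median, highest) and 37.0, 206 and 142 in met, and *Ifnar2* was 188 and 119, 0.888, 129 and 271, and 262, 85.3 and 142. The non-met ranges of both genes held every met value. *Stat2* was 89.8 and 76.1 CPM in controls, 23.5, 245 and 292 in non-met and 220, 120 and 170 in met. *Irf9* was 37.5 and 123 CPM in controls, 32.6, 125 and 232 in non-met and 103, 1.52 and 63.0 in met. *Irf7*, which amplifies interferon production, was 28.9 and 21.1 CPM in controls, 1.24, 38.2 and 140 in non-met and 75.8, 94.0 and 73.2 in met. All 3 met libraries were above both controls for *Irf7*, and the fitted difference was 1.72 ± 1.41 (SE) on the log2 scale, with an adjusted P of 0.639 (voomLmFit).

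Of the other lists of the pathway, the GTPases and other genes that answer mainly to interferon gamma gave the most calls. In met against control 2 of their 15 tested genes were called higher, beside 0.686% of all genes. They were *Gbp4* (log2 fold change 2.52 ± 0.407 (SE), adjusted P = 0.000571, voomLmFit) and *Iigp1* (1.50 ± 0.336 (SE), adjusted P = 0.0217). In met against non-met none of the 15 was called by voomLmFit, and 9 had an unadjusted P under 0.05 (7.24% of all genes did). All 15 had higher fitted levels in met, beside 51.8% of all genes, with a median log2 fold change of 2.64 (all genes 0.08). DESeq2 called *Gbp2* there and *Gbp4* in met against control, and the quasi-likelihood test and limma-trend called none of the 15 in either. Of the 9 tested genes that induce interferon and the 7 negative regulators, none was called by voomLmFit in any comparison, and at most 1 of each list had an unadjusted P under 0.05. DESeq2 called 1 negative regulator, the phosphatase gene *Ptpn6*, in met against non-met and in non-met against control, and the other tests none. Their median log2 fold changes from non-met to met were -0.04 and -0.27.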

How the data were processed

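The authors sequenced SMART-Seq v4 libraries of sorted cells, aligned the reads to mm10 and counted reads per Entrez gene with featureCounts. The deposited values are raw counts, with no normalisation, and strandedness is not given in the sources used here. Rows were named from RefSeq GRCm38.p6, rows without a name, predicted and ribosomal rows were left out (1.94% to 15.7% of a library), and 23463 remained. filterByExpr of edgeR 4.0.16 (minimum count 10, minimum total 15) kept 11948. All 11 libraries entered 1 model of 3 groups (voomLmFit with sample weights of 0.43 to 1.96, TMM scaling, limma 3.58.1), with Benjamini-Hochberg adjustment over all genes tested and a threshold of 0.05. The script was tested on simulated data. Log2 CPM used a prior count of 2, and single genes were also tested by exact permutation of libraries (84, 10 and 28 splits; smallest P 0.0119, 0.1 and 0.0357). Mouse pools pair libraries of the same animals, per the labels.

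The members, lists and tests were chosen with earlier results of these data known. Values by library are given for members called in any comparison. They are also given for the 2 members with the highest mean CPM in each of 9 functional classes. In non-met these are the lowest, median and highest, except for the called gene. Promoters are printed for those of these members that hold the motif before a start site. *Ifit1*, *Oas1a*, *Oas2* and *Oas3* (CPM) and *Ifi35* (RPKM) are given with values outside these rules. Other genes named with values are marked or belong to the pathway lists. Alternatives were the quasi-likelihood test, DESeq2 1.42.0, limma-trend, no sample weights, library size and relative log expression (RLE) scaling, other filters, rows kept, pool as a block, summed libraries, fewer groups and each library left out. Of the pathway genes chosen for values, 1 is not reported here.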

Additional observations from a re-analysis of the deposited data

Results flagged for a closer look

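Among the 36 tested members, 3 had a non-met library far from the other 5 by Dixon's criterion on log2 CPM, which flags about 1 in 20 groups by chance. *Mx2* was 4.65 CPM in non-met 2, where the other non-met libraries were at 0 to 0.311 CPM. *Parp12* was 0 CPM in non-met 6, where the others were at 26.4 to 162 CPM. *Ifi27* was 1.56 CPM in non-met 3, where the others were at 47.8 to 121 CPM.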

How the results depend on the processing

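There were 3 met libraries and 2 controls, and the floor lay at up to 5.43 CPM. *Isg15* and *Ifit2*, seen in some libraries and not in others, were measured with little precision. Their standard errors in met against non-met were 1.40 and 1.53 on the log2 scale (voomLmFit). The part of depth and of group size in this was not tested. No alternative called a member in met against non-met. A paired fit, with the pools as a fixed replicate block, gave a median log2 fold change of 0.42 there and 0 calls, and the random replicate block 1.18 and 0 calls. Over all alternatives this median stayed above 0 (0.34 to 1.66). In met against control the count of called members (1) was 0 with the quasi-likelihood test, limma-trend, summed libraries and only the 2 groups compared, 2 with DESeq2 and without sample weights, 3 without a low-count filter, and 0 to 2 with 1 library left out (0 without control 1 or met 3, 2 without control 2). The median of 0.47 was 0.08 with limma-trend and 0.22 to 0.84 with 1 library left out. In non-met against control the count of 0 was 1 with DESeq2, and the median of -0.23 was 0.06 with the quasi-likelihood test, 0.22 with DESeq2, 0.30 without a low-count filter and -1.37 to 0.59 with 1 library left out, where that of all genes was 0.14, 0.22, 0.56 and -0.94 to 0.20. The count of members with every met library above every non-met library (1) was 0 with library size and with RLE scaling and 1 to 3 with 1 library left out. The count within pools (4) was 5 to 18 with 1 library left out. With a library left out these 2 counts can only stay or rise, since each library removed takes away a condition. Over all genes tested they rose as well, from 184 to between 236 and 500 and from 908 to between 1191 and 2860. The causes of the other shifts were not tested.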
